A study of Mus musculus with 24 samples.

Results

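Chemokines and their receptors were followed in the skin of 24 mice. The set holds the genes whose symbol starts with Ccl, Cxcl, Cx3cl, Xcl, Ccr, Cxcr, Cx3cr or Ackr followed by a digit, kept where the mean of 1 or more of the 6 groups reached 0.5 FPKM. FPKM is a fragment count scaled to gene length and library size, so levels can be compared between genes. Of 18892 genes listed, 57 matched by name and 44 reached the level: 30 ligands (18 of the CC and 10 of the CXC class, Cx3cl1 and Xcl1), 11 signalling receptors and 3 atypical receptors. Control mice had daily saline injections with solvent on the skin. Model mice had daily injections of dihydrotestosterone (DHT), an androgen, with solvent on the skin, and treatment mice had DHT injections with HLX extract, a preparation of the Hanlianxiang herbal formula, on the skin. Of the 8 mice per arm, 4 were killed at day 10 and 4 at day 15, and each library is the skin of 1 mouse. Strain, sex and age of the mice are not given in the sources used here.

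Chemokines are small secreted proteins that guide leukocytes by binding G-protein-coupled receptors on their surface. Ligands of the CC class mostly act on monocytes, macrophages, eosinophils and T cells, while CXC ligands that bind CXCR2 attract neutrophils and those that bind CXCR3 attract activated T cells. Atypical receptors bind chemokines without G-protein signalling and take them up. In skin, keratinocytes, fibroblasts, endothelium and resident immune cells all make chemokines, some of them constantly and others only on inflammatory stimulation.

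Reads recovered from the FPKM table came to between 37048896 and 41117262 per library, and the skin label was matched by keratinocyte markers summing to 823 to 2537 FPKM and fibroblast markers to 1970 to 9612 FPKM in every library. Summed B cell markers were at most 2.65 FPKM. Mouse 3 of the model group at day 15 had 8 neutrophil markers summing to 2982 FPKM, against 95.3 to 293 FPKM in the other mice of its group. Mouse 3 of the treatment group at day 15 had the lowest macrophage sum (748 FPKM) of its group, whose highest was 2939 FPKM. Summed Y-linked transcripts were 22.3 to 33.4 FPKM in 4 treatment libraries (mouse 3 at day 10, mice 1, 2 and 4 at day 15) and 39.2 to 50.6 FPKM in the other 20. The cause was not tested, nor was it tested whether each of these 4 libraries holds 1 mouse, as is taken here. The 7 kidney markers summed to 17.3 to 28.8 FPKM in the 8 control and model libraries of day 10 and to at most 0.17 FPKM in the other 16. Comparisons of the treatment group at day 10, and of days within the control or model arm, follow that split and cannot be told apart from it, while model against control at day 10 lies within it. There the sums were 25.1 to 28.8 FPKM in control and 17.3 to 25.1 FPKM in model mice. All 3 kidney markers tested were called lower in model mice of day 10.

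Ccl8 (monocyte chemoattractant protein 2) was the highest chemokine, with a mean of 646 FPKM over the 24 libraries and 27.1% to 59.3% of the summed FPKM of all ligands in a library. Ccl6 and Ccl9, rodent ligands of CCR1 made by myeloid cells, Cxcl14, a chemokine that epidermis makes without inflammation, and Ccl7 (monocyte chemoattractant protein 3) followed. The mean was above 10 FPKM for 22 of the 44 members and under 1 FPKM for 7. The group mean was highest in the model group of day 15 for 26 members and lowest in the control group of day 10 for 28. Neither count was made over all genes, so both describe the set only. Summed over all members, chemokines and receptors took 0.152% to 0.209% of the total FPKM in control mice of day 10, 0.304% to 0.403% in model mice and 0.315% to 0.400% in treatment mice. At day 15 the share was 0.256% to 0.439% in control, 0.467% to 1.13% in model and 0.183% to 0.554% in treatment mice, with the highest value in model mouse 3 and the lowest in treatment mouse 3. Model mouse 3 of day 15 held the highest value of 23 of the 40 members tested (57.5%), against 12% of all genes tested.

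Just inside the threshold lay Ccl1, with 0.523 FPKM in its highest group, and Ccl19 with 0.731 FPKM. Just outside lay Cxcr1 with 0.493 FPKM in its highest group and Ccl17 with 0.389 FPKM. The tests were run on genes with at least 1 FPKM in at least 4 libraries, which 40 of the 44 members passed. Ccl1, Ccl19, Ccr3 and Cx3cr1 did not pass. Ccl3, Ccl4, Ccr7, Cxcl1, Cxcl2, Cxcl3, Cxcl5, Cxcr2 and Cxcr3, 9 tested members, were under 1 FPKM in all 4 control mice of day 10. They passed through other groups, some of which had to be higher, and the counts and medians over members given below describe the set and support no claim about it. Ccl21a and Ccl27a have near-identical copies in the mouse genome, so their values are uncertain.

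The promoters of 5 ligands are shown as examples: Ccl8 was the highest ligand, Cxcl1, Cxcl2 and Cxcl3 spread widely between mice, and Cxcl10 is the interferon-responsive ligand called between model and control mice. Each line gives, 5′ to 3′ on the gene's strand, the 250 bases before the start site in RefSeq on GRCm38.p6: chr11:82114935-82115184 (plus strand) for Ccl8, chr5:90890995-90891244 (plus) for Cxcl1, chr5:90903649-90903898 (plus) for Cxcl2, chr5:90785851-90786100 (plus) for Cxcl3 and chr5:92348890-92349139 (minus) for Cxcl10. Capitals mark matches to an NF-kB motif or an interferon response element, on either strand.
Ccl8: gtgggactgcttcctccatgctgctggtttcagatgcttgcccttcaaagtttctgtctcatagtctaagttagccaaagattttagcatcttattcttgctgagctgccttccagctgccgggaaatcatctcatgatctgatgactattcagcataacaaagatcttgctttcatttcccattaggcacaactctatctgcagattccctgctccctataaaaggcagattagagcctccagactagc
Cxcl1: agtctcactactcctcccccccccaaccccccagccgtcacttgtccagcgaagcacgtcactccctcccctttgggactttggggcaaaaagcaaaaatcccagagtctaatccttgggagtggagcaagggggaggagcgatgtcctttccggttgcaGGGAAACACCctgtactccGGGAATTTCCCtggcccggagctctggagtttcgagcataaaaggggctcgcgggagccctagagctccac
Cxcl2: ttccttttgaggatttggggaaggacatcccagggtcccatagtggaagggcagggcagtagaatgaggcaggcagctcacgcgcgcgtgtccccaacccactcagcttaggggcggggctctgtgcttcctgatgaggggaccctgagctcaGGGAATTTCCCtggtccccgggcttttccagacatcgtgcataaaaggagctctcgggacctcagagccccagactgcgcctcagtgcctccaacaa
Cxcl3: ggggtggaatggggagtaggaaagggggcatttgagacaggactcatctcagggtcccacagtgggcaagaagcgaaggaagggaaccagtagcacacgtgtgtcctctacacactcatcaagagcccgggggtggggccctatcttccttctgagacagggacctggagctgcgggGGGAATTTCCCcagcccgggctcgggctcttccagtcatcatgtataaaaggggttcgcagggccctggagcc
Cxcl10: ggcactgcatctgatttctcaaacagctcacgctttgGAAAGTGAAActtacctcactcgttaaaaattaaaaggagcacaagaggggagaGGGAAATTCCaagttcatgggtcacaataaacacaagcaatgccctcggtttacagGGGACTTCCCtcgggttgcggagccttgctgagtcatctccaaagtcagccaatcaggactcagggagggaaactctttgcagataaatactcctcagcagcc

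The NF-kB letters GGGAATTTCC began 71, 97 and 73 bases before the starts of Cxcl1, Cxcl2 and Cxcl3, each overlapping a match on the opposite strand that begins 1 base nearer the start. Cxcl1 had a further match, GGGAAACACC, at 90 bases. Cxcl10 had NF-kB matches at 103 bases (GGGACTTCCC) and 159 bases (GGGAAATTCC) and the interferon letters GAAAGTGAAA at 213 bases, and the window of Ccl8 held neither motif. Of the 34 members with a window in RefSeq, 14 (41.2%) held the NF-kB motif, against 19.7% of all 27025 genes with a window and 26.2% of the 10418 tested genes with one. The interferon letters were in 3 of 34 (8.82%; Ccl19, Cxcl10 and Cxcl14), against 3.46% of all genes. The STAT motif TTCNNNGAA was in 1 (2.94%, Cxcl14), against 8.13%, and the steroid receptor palindrome in 0, against 0.44%. These are matches of letters, not measured sites.

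Model against control asks what DHT injection changed. At day 10, Ccl8, Ccl9, the T cell receptor for interferon-induced chemokines Cxcr3 and the CXCL12 scavenger Ackr3 rose, and Cx3cl1 (fractalkine, a chemokine held on the cell membrane) fell. At day 15, Ccl8, Ccl12 (monocyte chemoattractant protein 5, a CCR2 ligand) and Cxcl10 rose, and Cx3cl1 fell again. Each difference below is one of log2(FPKM + 1), so a change in a low gene is understated, and its standard error (SE) comes from a limma fit. A gene is called when limma's Benjamini-Hochberg adjusted p over all 13039 genes tested is under 0.05. At day 10, 5 of 40 members (12.5%) were called, against 13.8% of all genes tested, and at day 15, 4 of 40 (10%) against 10.8%. Of all genes, 6.79% were called higher and 7.04% lower at day 10, and 4.23% and 6.56% at day 15. By this count the members were called about as often as other genes. The median difference of the 40 members was 0.81 at day 10 and 0.55 at day 15, against -0.016 and -0.03 for all genes tested, with 31 and 29 members higher in model mice. The libraries of both groups did not overlap for 16 members at day 10 (40%; 14 higher and 2 lower), against 21.8% of all genes, and for 3 (7.5%) at day 15, against 20.2%.

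**Figure D1:**
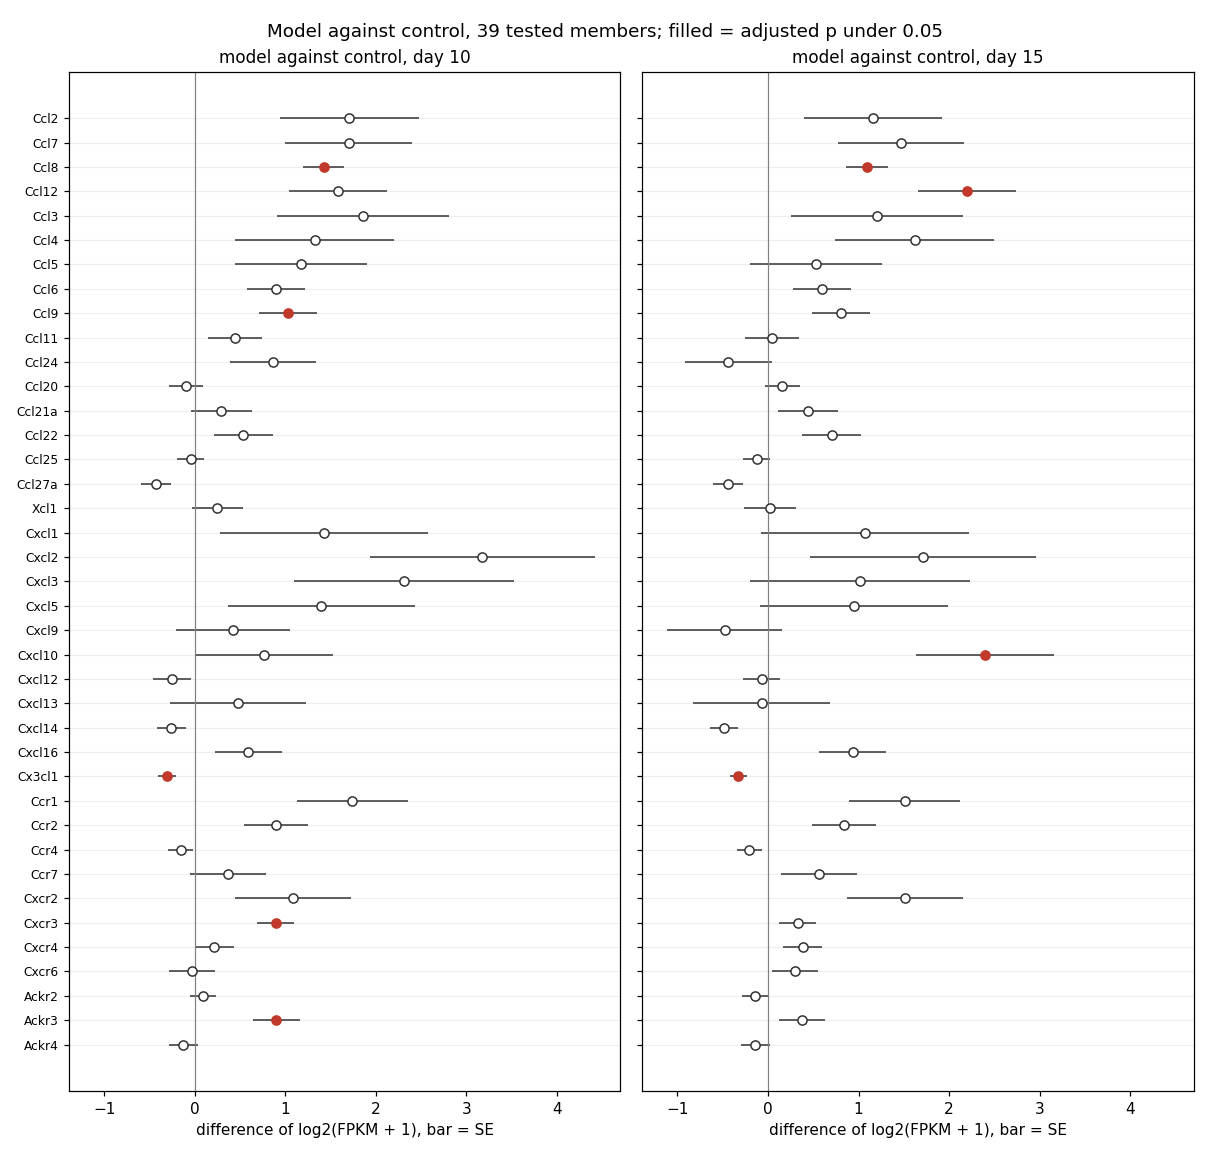
Difference of log2(FPKM + 1) between model and control mice (x axis) for 39 of the 40 tested members (y axis) at day 10 (left) and day 15 (right). Points are estimates and bars 1 SE, with filled red points at an adjusted p under 0.05: 5 members at day 10 and 4 at day 15. The CXCR2 ligands have the widest bars, with an SE of 1.25 for Cxcl2.

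The calls of Ccl8 at both days and of Cxcr3 at day 10 held with any 1 library left out, and the others did not. Leaving out 1 library at a time gave 2 to 6 called members at day 10, with 2 or 3 when control mouse 1, 3 or 4 or model mouse 2, 3 or 4 was left out. For day 15 the same gave 1 to 6, with 1 or 2 when any control mouse or model mouse 3 was left out. With only the 8 libraries compared in the fit, 16 members were called at day 10 and 2 at day 15. The share of all genes called in these refits is not given, so the counts show only how the calls moved.

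Treatment against model asks what the HLX extract changed in DHT-injected mice. At day 10 no member was called and at day 15 Ccl8, Ccl9 and Ccr2, the main monocyte receptor of this family, were lower in treatment mice. For day 10 this is 0 of 40 by limma, against 0.192% of all genes tested, with 2 members at an unadjusted p under 0.05 and 0 by voom on the recovered reads. For day 15 it is 3 of 40 (7.5%), against 19.7% of all genes (9.32% lower). At day 15, 33 of the 40 members were lower in treatment mice, with a median of -0.36 against -0.017 for all genes. The libraries of both groups did not overlap for 3 members at day 10 (7.5%; Cxcl14 and Cxcr2 higher, Ccl8 lower), against 8.99% of all genes, and for 1 at day 15 (2.5%; Ccl8, lower), against 12.8%. Both comparisons of a day use the same model libraries, so a high model library enters each of them.

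**Figure D2:**
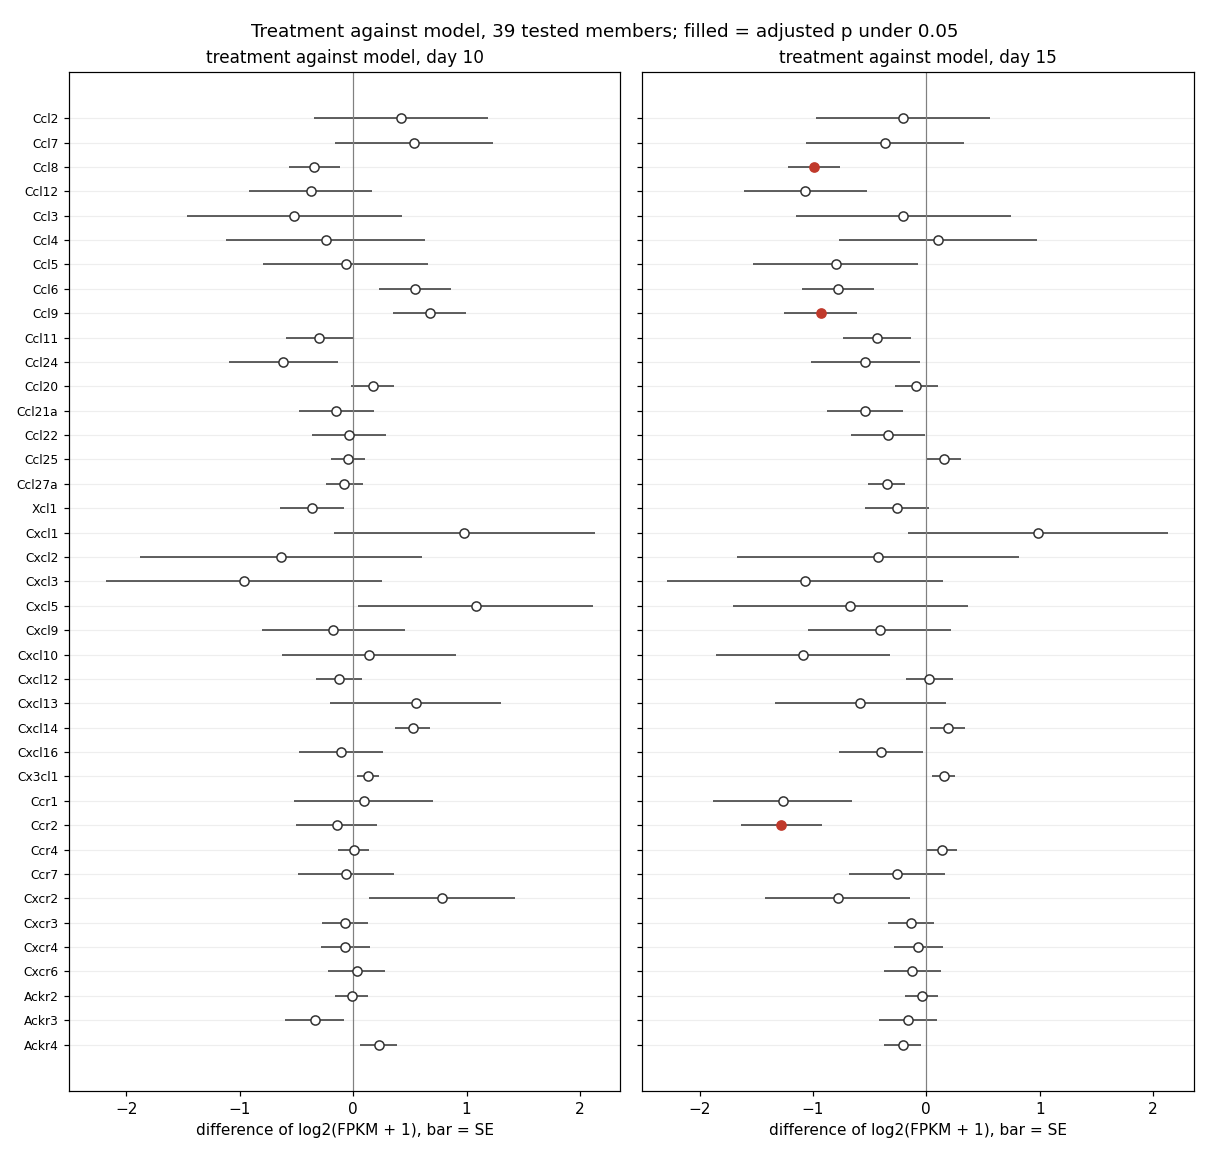
Difference of log2(FPKM + 1) between treatment and model mice (x axis) for 39 of the 40 tested members (y axis) at day 10 (left) and day 15 (right), bars 1 SE, filled red where the adjusted p is under 0.05. At day 15, 32 of 39 points lie below 0 and 3 are filled: Ccl8, Ccl9 and Ccr2.

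At day 15 the count moved with single libraries: 6 members were called without model mouse 1, and 1 without model mouse 3 or without treatment mouse 1. With only the 8 libraries compared in the fit, 0 were called. For these refits the share of all genes called is not given. Leaving out the 4 libraries low in Y-linked transcripts leaves mouse 3 alone in the treatment group of day 15, so no count is given for that fit.

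Of the members named monocyte chemoattractant proteins (Ccl2, Ccl7, Ccl8 and Ccl12), Ccl8 had the highest mean level. It was at 296, 374, 209 and 242 FPKM in the control mice of day 10 and at 662, 782, 738 and 771 FPKM in the model mice. All 4 model mice lay above all 4 control mice. The means were 280.4 ± 72.4 (SD, n = 4) and 738 ± 54.2 FPKM, and the log2 difference was 1.43 (SE 0.23, limma adjusted p = 0.00188). The levels of day 15 were 693, 539, 428 and 484 FPKM in control and 922, 1295, 1215 and 1110 FPKM in model mice, again with no overlap (log2 difference 1.09, SE 0.23, limma adjusted p = 0.00876). At day 10 the summed macrophage markers (10 of 10 detected) were at 651 to 1039 FPKM in control and 1624 to 2343 FPKM in model mice. Their ranges at day 15, 1045 to 2085 and 2078 to 4166 FPKM, overlapped. Lyz2 alone made 333 to 622 FPKM of the control and 882 to 1280 FPKM of the model sums of day 10. Summed fibroblast markers were at 2882 to 4390 FPKM in control and 5024 to 7764 FPKM in model mice of day 10. They were at 3292 to 3966 and 5452 to 9612 FPKM at day 15. The part of either cell type in the result was not tested. In whole skin, more cells of a type and more RNA per cell cannot be told apart. Both calls held with any 1 of the 8 libraries left out, with limma's highest adjusted p at 0.011 for day 10 and 0.036 for day 15.

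In treatment mice Ccl8 was at 553, 635, 602 and 538 FPKM at day 10, below every model mouse, but the difference of -0.34 (SE 0.23) was not called (limma adjusted p = 0.622). By day 15 it had values of 568, 740.4, 303 and 801 FPKM, below every model mouse of that day and overlapping the control mice. Ccl8 was lower by a log2 difference of -0.99 (SE 0.23, limma adjusted p = 0.00646). The call held with any 1 library left out, where the differences ran from -1.16 to -0.69, and without mouse 3 of both groups the difference was -0.66. It was lost when only the 8 libraries compared entered the fit (limma adjusted p = 0.154). Macrophage markers summed to 2078 to 4166 FPKM in the model and 748 to 2939 FPKM in the treatment mice of day 15. Of these sums, Lyz2 alone made 1180 to 2739 FPKM in model and 402 to 1519 FPKM in treatment mice. The part of macrophages in the Ccl8 result was not tested.

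**Figure D3:**
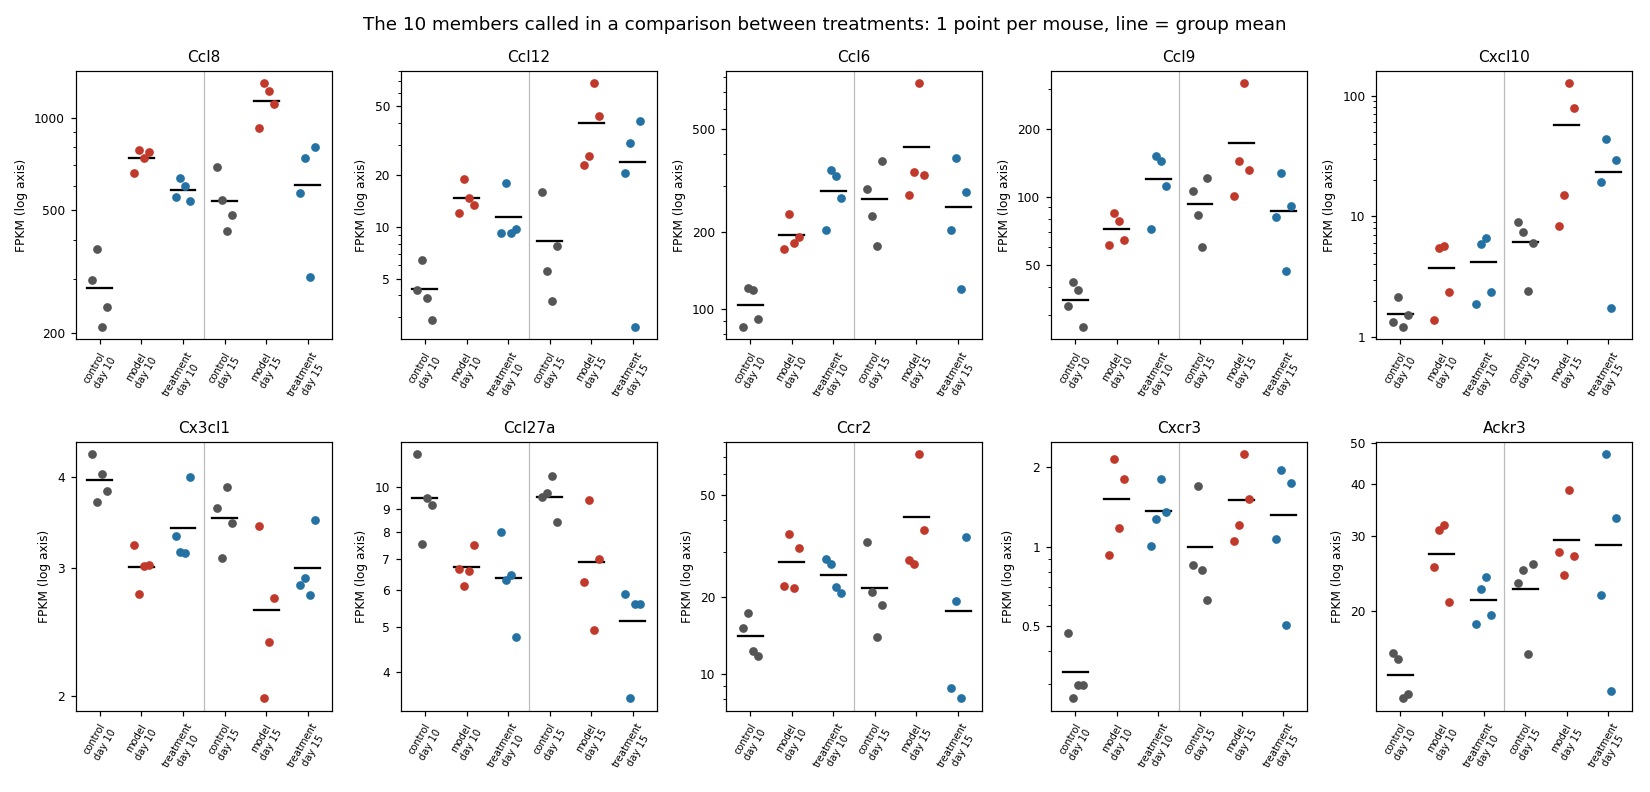
Level in FPKM (log axis) of the 10 members called between treatments, by group (x axis), with 1 point per mouse and a line at the group mean. Ccl8 of model mice lies above that of control and treatment mice at both days, while the points of the other members overlap between treatment and model at day 15.

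Ccl12 was at 4.32, 6.39, 3.88 and 2.88 FPKM in control and 12, 18.9, 14.8 and 13.4 FPKM in model mice of day 10. The groups did not overlap, yet the difference of 1.58 (SE 0.54) missed the threshold (limma adjusted p = 0.0572). Day 15 values were 16, 5.52, 3.72 and 7.7 FPKM in control and 22.9, 25.8, 68.3 and 44 FPKM in model mice, a log2 difference of 2.20 (SE 0.54, limma adjusted p = 0.0185). All model mice were higher, mouse 3 most. The day 15 call was lost without control mouse 2, 3 or 4 or model mouse 3 (limma adjusted p at most 0.071). Treatment mice were at 9.17, 17.9, 9.17 and 9.66 FPKM at day 10 and at 20.5, 30.5, 2.62 and 41.1 FPKM at day 15, with mouse 3 far below the others, and neither difference from model was called.

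Ccl7 was at 7.6, 13.4, 6.75 and 7.1 FPKM in control, 18.9, 31.4, 67.3 and 18.6 FPKM in model and 30.6, 56, 64.1 and 31.7 FPKM in treatment mice of day 10. At day 15 it was at 97.4, 29.7, 22.1 and 57.4 FPKM in control, 87, 63.7, 401 and 104 FPKM in model and 119, 218, 14.5 and 213 FPKM in treatment mice. Control mice of day 10 were the lowest, and at day 15 the 3 groups overlapped. Ccl2 (monocyte chemoattractant protein 1), the ligand best known for CCR2, ranged from 2.08 to 5.11 FPKM in control and 7.89 to 39.5 FPKM in model mice of day 10. Its range at day 15 was 22.4 to 210.3 FPKM in model and 6.73 to 97.7 FPKM in treatment mice. Neither gene was called in any comparison. Ccl2, Ccl7, Ccl11, Ccl12, Ccl8 and Ccl1 lie in this order on chromosome 11, in a run of 6 neighbouring protein-coding genes.

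The other inflammatory CC ligands split into Ccl6 and Ccl9, which were high in every mouse, and Ccl3, Ccl4 and Ccl5, which were at 2.28 FPKM or less in every control mouse of day 10. Ccl9 was at 32.9, 42.2, 38.9 and 26.6 FPKM in control and 61.4, 84.6, 78.1 and 64.6 FPKM in model mice of day 10, with no overlap (log2 difference 1.03, SE 0.32, limma adjusted p = 0.0389). That call was kept only without control mouse 2 or model mouse 1, and the highest adjusted p with another mouse left out was 0.11. Treatment mice of day 10 were at 72, 151, 144 and 112 FPKM, a difference of 0.68 (SE 0.32) from model that was not called (limma adjusted p = 0.473).

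At day 15 Ccl9 was at 106, 83.6, 60.04 and 121 FPKM in control, 101, 144, 319 and 131 FPKM in model and 81.9, 128, 47 and 91.5 FPKM in treatment mice. Model mouse 3 was the highest and treatment mouse 3 the lowest. Ccl9 was called lower in treatment mice, at -0.93 (SE 0.32, limma adjusted p = 0.0468). This call was kept only without model mouse 1 or treatment mouse 2. Without mouse 3 of both groups the difference was -0.33 (limma adjusted p = 0.42). With the replicate number as a block, the limma adjusted p was 0.0519.

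Ccl6 was at 85.3, 121, 119 and 92 FPKM in control, 171, 234, 181 and 191 FPKM in model and 203, 348, 330.0 and 271 FPKM in treatment mice of day 10. The model and treatment mice lay above the control mice, and model against control gave 0.90 (SE 0.32, limma adjusted p = 0.064), outside the threshold. The levels of day 15 were 292, 231, 176 and 377 FPKM in control, 277, 340.5, 756 and 331 FPKM in model and 203, 387, 120.5 and 285 FPKM in treatment mice. The 3 groups overlapped there, and treatment against model gave -0.78 (SE 0.32, limma adjusted p = 0.0877). Ccl5 (RANTES), Ccl9, Ccl6, Ccl3 and Ccl4 also form an uninterrupted run of protein-coding genes on chromosome 11.

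Ccl3 (macrophage inflammatory protein 1 alpha) was at 0 to 0.307 FPKM in control, 0.293 to 16.2 FPKM in model and 0.687 to 5.33 FPKM in treatment mice of day 10. By day 15 it reached 67 FPKM in model mouse 3, with the other model mice at 2.52 to 5.52 FPKM and treatment mice at 0.307 to 19.2 FPKM. Ccl4 (macrophage inflammatory protein 1 beta) ran with it, from 0.0404 to 0.408 FPKM in control mice of day 10 to 68 FPKM in model mouse 3 of day 15. Ccl5, which T cells make in quantity, was at 7.54, 7.79, 105 and 44.1 FPKM in model mice of day 15 and at 43.4, 11.6, 5.76 and 20.7 FPKM in control mice of that day. None of the 3 was called between treatments.

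The eotaxins, which attract eosinophils through CCR3, were Ccl11 and Ccl24. Ccl11 was at 10.8 to 15.6 FPKM in control, 13.5 to 21.3 FPKM in model and 11.4 to 17.1 FPKM in treatment mice of day 10. By day 15 it had values of 18.4 to 29.3, 12.2 to 53.7 and 16.5 to 21.1 FPKM. Ccl24 varied most in model mice of day 10, where it was at 18, 1.09, 7.51 and 2.78 FPKM. At day 15 Ccl24 was at 3.46 to 13.8 FPKM in control and 2.4 to 3.06 FPKM in treatment mice, with no overlap, but neither eotaxin was called in any comparison. Their receptor Ccr3 stayed under 1 FPKM in 22 of the 24 libraries and under the test's level filter. In the limma fit without that filter it was called in no comparison, with 0.18 (SE 0.21, adjusted p = 0.657) for model against control at day 10.

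Of the ligands that guide T cells and dendritic cells, Ccl27a, a keratinocyte chemokine that draws skin-homing T cells, was at 11.8, 7.57, 9.49 and 9.17 FPKM in control, 6.66, 6.14, 6.59 and 7.52 FPKM in model and 8, 6.31, 6.47 and 4.76 FPKM in treatment mice of day 10. Model mice lay below all control mice, with a difference of -0.43 (SE 0.16, limma adjusted p = 0.0794) outside the threshold. Day 15 values were 9.52, 9.7, 10.6 and 8.41 FPKM in control, 6.26, 9.39, 4.92 and 7 FPKM in model and 5.89, 3.51, 5.6 and 5.61 FPKM in treatment mice. Treatment mice were below all control mice, and this was the 1 member called between treatment and control at day 15 (log2 difference -0.79, SE 0.16, limma adjusted p = 0.0497). The call was kept only without treatment mouse 3 and lost without any of the other 7 libraries, with limma's highest adjusted p at 0.24. Its receptor Ccr10 was below the level set for members, at 0.147 FPKM in its highest group.

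Ccl21a, which lymphatic endothelium makes to attract cells with CCR7, was at 35.7 to 108 FPKM in control mice of day 10 and 34.7 to 59.9 FPKM at day 15, and it was not called. Its lowest value, 19 FPKM, was in treatment mouse 3 of day 15, the highest value of the same group being 59.3 FPKM. Ccl22, a ligand of CCR4, was at 1.16 to 1.56 FPKM in control and 1.62 to 5.96 FPKM in model mice of day 15, with no overlap and an uncalled difference of 0.71 (SE 0.33, limma adjusted p = 0.151). Ccl20, the ligand of CCR6, Ccl25, the ligand of CCR9, and Xcl1, which attracts cross-presenting dendritic cells, were under 3 FPKM in every mouse. Ccl1 and Ccl19 had group means under 1 FPKM.

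The CXCR2 ligands, which attract neutrophils, varied most between mice and were called in no comparison. Cxcl2 was at 0.174, 0.27, 0.418 and 0.0491 FPKM in control and 1.95, 12.7, 70.8 and 4.12 FPKM in model mice of day 10. All model mice were higher, and the difference of 3.18 (SE 1.25) was not called (limma adjusted p = 0.0909). Cxcl3 was likewise higher in every model mouse of day 10, at 0.278 to 25.4 FPKM against at most 0.0524 FPKM in control mice. Cxcl1 was at 0.339, 0.306, 0.335 and 0.0557 FPKM in control and 0.0539, 1.27, 21.3 and 1.39 FPKM in model mice, so that model mouse 1 lay at the control level. Cxcl5 was at 0, 2.21, 8.26 and 0.962 FPKM in model mice, with mouse 1 the lowest and mouse 3 the highest, as for Cxcl1.

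At day 15 the 4 CXCR2 ligands summed to 4.55 to 176 FPKM in control, 9.62 to 641 FPKM in model and 3.25 to 240.2 FPKM in treatment mice, and the 3 ranges overlapped. The highest sum was in model mouse 3 and the lowest in treatment mouse 3. Cxcl2 was at 11.8, 3.31, 302 and 16.6 FPKM in model and 24.5, 63.6, 0.523 and 35 FPKM in treatment mice. Cxcl1 was at 13.1, 2.9, 98.3 and 8.28 FPKM in model and 45.5, 128, 0.82 and 70.7 FPKM in treatment mice, so 3 of the 4 treatment mice were above 3 of the 4 model mice. Its difference of 0.99 (SE 1.15) was not called (limma adjusted p = 0.568). The promoters of Cxcl1, Cxcl2 and Cxcl3, shown before, share the NF-kB letters GGGAATTTCC, and these genes and Cxcl5 lie within 7 neighbouring protein-coding genes on chromosome 5.

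The receptor Cxcr2, carried mainly by neutrophils, was at 0.423, 0.612, 0.35 and 0.221 FPKM in control, 1.5, 2.48, 2.61 and 1.41 FPKM in model and 3.15, 4.55, 4.94 and 3.89 FPKM in treatment mice of day 10. These groups did not overlap, though no difference was called (treatment against model 0.79, SE 0.64, limma adjusted p = 0.705). At day 15 it was at 5.43, 1.65, 42.5 and 2.76 FPKM in model and 2.46, 5.5, 0.441 and 8.8 FPKM in treatment mice. Neutrophil markers (8 genes) summed to 24.3 to 34.7 FPKM in control, 80.1 to 265 FPKM in model and 127 to 197 FPKM in treatment mice of day 10. The sums were 48.3 to 278, 95.3 to 2982 and 47.8 to 435 FPKM at day 15. S100a8 and S100a9 made most of the highest sum, at 1235 and 1569 FPKM in model mouse 3 of day 15. Ly6g and Ngp were at 0 in all control mice of day 10, and neither passed 0.26 FPKM in any mouse of that day. The part of neutrophils in the values was not tested.

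**Figure D4:**
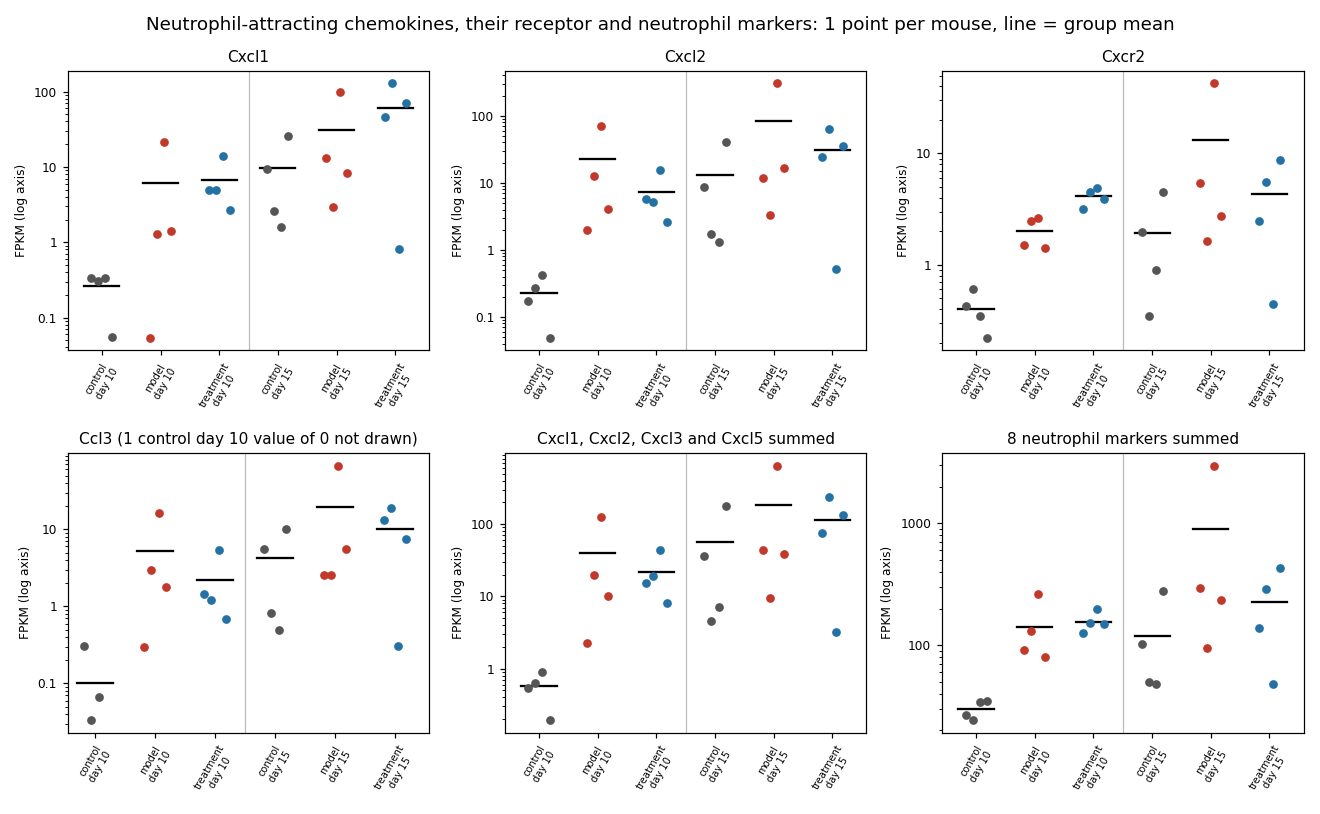
Levels in FPKM (log axis) of Cxcl1, Cxcl2, Cxcr2 and Ccl3, the summed CXCR2 ligands and the summed neutrophil markers by group (x axis), with 1 point per mouse and a line at the group mean. Model mouse 3 of day 15 is the highest in 5 of the 6 panels (641 FPKM for the ligand sum, 2982 FPKM for the markers), and Cxcl1 is highest in treatment mouse 2 of day 15 at 128 FPKM.

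The interferon-induced ligands of CXCR3 were Cxcl9 and Cxcl10. Cxcl10 was at 1.35, 2.17, 1.21 and 1.52 FPKM in control, 1.38, 5.46, 5.65 and 2.37 FPKM in model and 1.88, 5.91, 6.65 and 2.35 FPKM in treatment mice of day 10. The levels of day 15 were 8.97, 7.38, 2.4 and 6.01 FPKM in control, 8.31, 15, 127 and 79.2 FPKM in model and 19.2, 43.8, 1.74 and 29.2 FPKM in treatment mice. Model mice 3 and 4 stood far above the rest, and model mouse 1 lay within the control range. The difference between model and control was 2.40 (SE 0.77, limma adjusted p = 0.0493), and the call was kept only without model mouse 1, with adjusted p up to 0.17 with another mouse left out. Treatment against model gave -1.09 (SE 0.77, limma adjusted p = 0.323). Cxcl9 at day 15 was at 18.2, 30.9, 1.84 and 13.6 FPKM in control and 3.22, 2.71, 19.6 and 19.7 FPKM in model mice, and it was not called between treatments.

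Cxcr3 itself was at 0.469, 0.264, 0.298 and 0.297 FPKM in control and 0.929, 2.16, 1.17 and 1.8 FPKM in model mice of day 10. Every model mouse was higher, with a log2 difference of 0.89 (SE 0.20, limma adjusted p = 0.00963) that held with any 1 of the 8 libraries left out (limma adjusted p at most 0.042). Cxcr3 is 1 of the 9 members that passed the level filter only through other groups. In the limma fit without that filter its adjusted p was 0.0146, and with a pseudocount of 0.1 the difference was 1.86. By day 15 it had values of 0.852, 1.71, 0.814 and 0.625 FPKM in control and 1.05, 1.2, 2.25 and 1.51 FPKM in model mice, with overlap and no call (difference 0.33, limma adjusted p = 0.28). Treatment mice were at 1.01, 1.27, 1.81 and 1.35 FPKM at day 10 and at 1.06, 1.96, 0.503 and 1.74 FPKM at day 15. Summed T cell markers (8 of 8 detected) were at 53.3 to 92.9 FPKM in control and 45.3 to 93.7 FPKM in model mice of day 10, of which Thy1 alone made 46.1 to 80.6 FPKM in control mice. Summed NK cell markers (4 of 4 detected) were at 2.09 to 3.54 FPKM in control and 3.31 to 7.88 FPKM in model mice of day 10. The part of either cell type in the Cxcr3 result was not tested.

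Other ligands are made by skin cells without inflammation. Cx3cl1, whose membrane form holds cells with CX3CR1, was at 4.29, 3.69, 4.04 and 3.82 FPKM in control, 3.22, 2.77, 3.01 and 3.03 FPKM in model and 3.31, 3.16, 3.14 and 3.99 FPKM in treatment mice of day 10. Day 15 values were 3.62, 3.1, 3.88 and 3.46 FPKM in control, 3.42, 1.99, 2.38 and 2.73 FPKM in model and 2.84, 2.9, 2.76 and 3.48 FPKM in treatment mice. Model mice lay below all control mice at day 10 and overlapped with them at day 15. It fell by 0.31 (SE 0.10, limma adjusted p = 0.0403) at day 10 and by 0.33 (SE 0.10, limma adjusted p = 0.0378) at day 15. Each call was lost in 6 of 8 omissions, kept only without control mouse 2 or model mouse 1 at day 10 and without model mouse 1 or 4 at day 15 (limma adjusted p up to 0.12).

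The receptor Cx3cr1 was under the level set for the tests, at 0.27 to 0.66 FPKM in control and 0.588 to 1.08 FPKM in model mice of day 10. At day 15 it was at 0.289 to 0.425 FPKM in control, 0.746 to 1.05 FPKM in model and 0.273 to 0.589 FPKM in treatment mice, with model mice above both other groups. In the limma fit without the level filter, the model-control difference of Cx3cr1 was 0.33 (SE 0.09, adjusted p = 0.031) at day 10 and 0.43 (SE 0.09, adjusted p = 0.0132) at day 15. The treatment-model difference at day 15 was -0.38 (SE 0.09, adjusted p = 0.0121). Cx3cr1 was picked out here after its values were seen. It is a member only through 3 groups where its mean was higher. These were model mice of day 10 (0.801 FPKM) and day 15 (0.841 FPKM) and treatment mice of day 10 (0.576 FPKM). In the other groups the mean was 0.36 to 0.432 FPKM, so these adjusted p-values support no claim about Cx3cr1.

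Cxcl14 was at 117, 101, 92.1 and 109.6 FPKM in control, 101, 88.9, 81.1 and 78.9 FPKM in model and 126, 139, 117 and 122 FPKM in treatment mice of day 10. Every treatment mouse was above every model mouse, and the difference of 0.52 (SE 0.16) had the smallest p of the members in that comparison without being called (limma adjusted p = 0.215). Ccl9 and Ccl6 came next, with Ccl6 at 0.55 (SE 0.32, limma adjusted p = 0.568). At day 15 Cxcl14 was at 184, 157, 139.6 and 178 FPKM in control, 141, 76.6, 153 and 113 FPKM in model and 119, 124, 134 and 160.0 FPKM in treatment mice. Model against control at day 15 gave -0.48 (SE 0.16, limma adjusted p = 0.0506). Cxcl12, the ligand of CXCR4 and ACKR3, had group means between 27.4 and 39 FPKM and was not called.

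Cxcl16, a membrane-bound ligand of CXCR6, was at 8.07 to 12.7 FPKM in control and 11.6 to 35.6 FPKM in model mice of day 15 (difference 0.93, SE 0.37, limma adjusted p = 0.0998). Cxcl13, which attracts B cells, ranged from 6.52 to 133 FPKM within the model mice of day 10 and was not called in any comparison.

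Among the CC receptors, Ccr2, which binds Ccl2 and Ccl12, was at 15.1, 17.2, 12.3 and 11.8 FPKM in control, 22, 35.2, 21.6 and 30.9 FPKM in model and 28, 26.9, 21.8 and 20.8 FPKM in treatment mice of day 10. All model mice lay above the control mice, with an uncalled difference of 0.90 (SE 0.36, limma adjusted p = 0.094). The levels of day 15 were 32.7, 20.9, 14 and 18.7 FPKM in control, 27.9, 27, 71.8 and 36.6 FPKM in model and 8.81, 19.4, 8.05 and 34.1 FPKM in treatment mice. Treatment mice 1, 2 and 3 were below every model mouse and mouse 4 was within their range, and Ccr2 was lower by -1.28 (SE 0.36, limma adjusted p = 0.017). Without model mouse 3 the difference was -0.97 (limma adjusted p = 0.0633) and without treatment mouse 1 it was -1.05 (limma adjusted p = 0.0765). Without mouse 3 of both groups it was -0.70 (limma adjusted p = 0.147). Monocyte markers (5 genes, all detected) summed to 134 to 576 FPKM in model and 37.6 to 225 FPKM in treatment mice of day 15. Of these sums, Ace alone made 67.8 to 146 FPKM in model and 22.6 to 85.9 FPKM in treatment mice. The part of monocytes in the Ccr2 result was not tested.

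Ccr1, a receptor of monocytes and neutrophils for Ccl3, Ccl5, Ccl6 and Ccl9, was at 1.12 to 2.23 FPKM in control and 6.06 to 10.8 FPKM in model mice of day 10. By day 15 it had values of 15.8, 12.1, 97.8 and 16.9 FPKM in model and 5.74, 20.8, 2.51 and 21.5 FPKM in treatment mice. The groups of day 10 did not overlap, those of day 15 did, and Ccr1 was not called between treatments. Ccr4, a receptor of skin-homing T cells, had group means from 0.926 to 1.26 FPKM, and Ccr7, the receptor for Ccl19 and Ccl21a, from 0.27 to 2.25 FPKM.

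Cxcr4, the receptor of Cxcl12, had group means from 4.73 to 7.97 FPKM and Cxcr6 from 0.659 to 1.43 FPKM, and neither was called. Of the atypical receptors, Ackr3 was at 15.9, 15.3, 12.4 and 12.7 FPKM in control, 25.4, 31, 31.9 and 21 FPKM in model and 18.6, 22.5, 24.1 and 19.5 FPKM in treatment mice of day 10. All model mice lay above all control mice, with a log2 difference of 0.90 (SE 0.26, limma adjusted p = 0.0278) that was lost without control mouse 3 or 4 or model mouse 2 or 3 (adjusted p up to 0.094). Day 15 values were 23.3, 25, 15.8 and 25.9 FPKM in control, 27.6, 24.3, 38.7 and 27 FPKM in model and 21.7, 47, 12.9 and 33.1 FPKM in treatment mice, with overlap throughout. Ackr2, which removes inflammatory CC chemokines, had group means from 0.785 to 1.11 FPKM. Ackr4, which removes Ccl19 and Ccl21a, had group means from 3.97 to 7.29 FPKM, and neither was called between treatments.

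Treatment against control sets DHT with extract beside neither. At day 10, Ccl9, Ccl8, Ccl6 and Cxcr3 were higher in treatment mice, 4 of 40 members (10%) against 3.24% of all genes tested (2.2% higher). The log2 differences were 1.70 (SE 0.32, limma adjusted p = 0.00769) for Ccl9, 1.08 (SE 0.23, limma adjusted p = 0.0144) for Ccl8, 1.44 (SE 0.32, limma adjusted p = 0.018) for Ccl6 and 0.82 (SE 0.20, limma adjusted p = 0.0335) for Cxcr3. Without the level filter, which Cxcr3 passed only through groups other than these control mice, its limma adjusted p was 0.0363, and with a pseudocount of 0.1 its difference was 1.75. The libraries of both groups did not overlap for 19 members (47.5%), all higher in treatment mice, against 23.8% of all genes. The call of Ccl9 held with any 1 library left out. That of Ccl8 was lost without control mouse 3 or 4 or treatment mouse 2 or 3, that of Ccl6 without control mouse 1 or 4 or treatment mouse 2 or 3, and that of Cxcr3 without any mouse but treatment mouse 1 (limma adjusted p up to 0.063, 0.077 and 0.13). The count was 1 without control mouse 4 or treatment mouse 2 or 3 and 2 without control mouse 1 or 3. The kidney markers split these groups the same way. At day 15, 1 of 40 members (2.5%) was called, against 0.314% of all genes (0.284% lower). It was Ccl27a, which was lower. Without treatment mouse 3, 7 members were called at day 15, and with any other treatment or control mouse of that day left out, 0.

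Within the control arm, day 15 against day 10 gave 7 called members of 40 (17.5%), all higher at day 15, against 4.81% of all genes (1.48% higher). Among them were Ccl5, from 0.944 ± 0.896 to 20.4 ± 16.6 FPKM (SD, n = 4), Cxcl9, from 0.901 ± 0.332 to 16.1 ± 12 FPKM, Ccl9, Ccl6, Ccl8 and Cxcl14. Ccl5 was at 2.28, 0.449, 0.401 and 0.649 FPKM in control mice of day 10, below every control mouse of day 15, with a log2 difference of 3.22 (SE 0.73, limma adjusted p = 0.0211). Cxcl9 went from 0.612, 1.28, 0.633 and 1.08 FPKM to values of 1.84 to 30.9 FPKM, a difference of 2.75 (SE 0.63, limma adjusted p = 0.0228). The differences of Cxcl14, Ccl8, Ccl6 and Ccl9 ran from 0.64 for Cxcl14 to 1.35 for Ccl9. The libraries of both days did not overlap for 24 members (60%), 23 of them higher at day 15, against 22.4% of all genes. The count fell to 0 without control mouse 1, 2 or 4 of day 15 and to 1 or 2 without control mouse 1, 2 or 4 of day 10. The kidney markers, present at day 10 and near 0 at day 15, split these groups too.

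**Figure D5:**
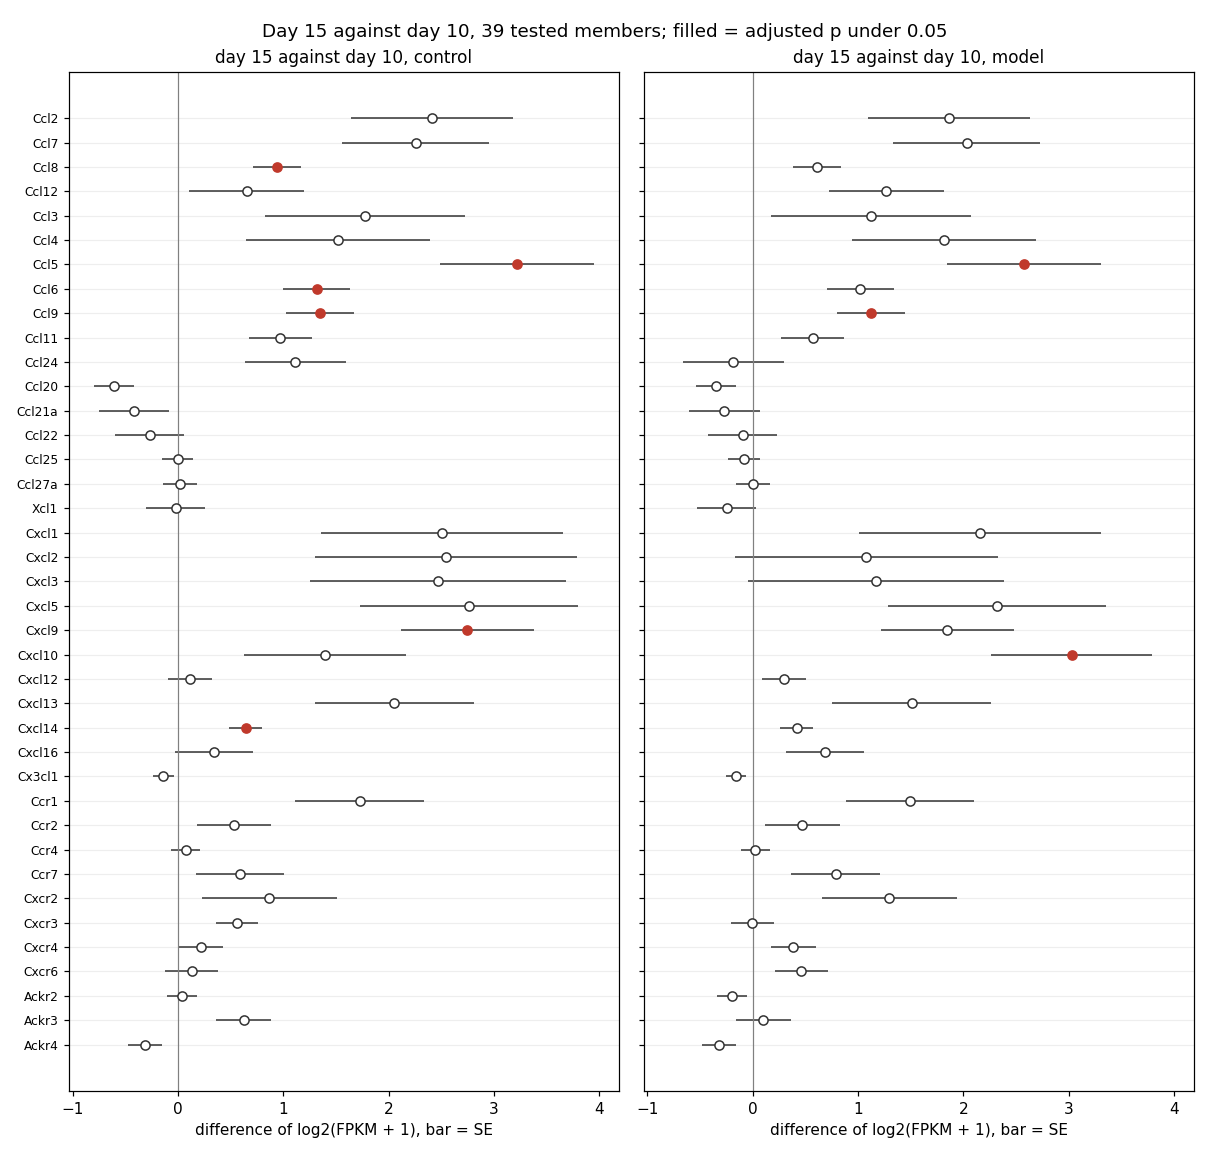
Difference of log2(FPKM + 1) between day 15 and day 10 (x axis) for 39 of the 40 tested members (y axis) in control mice (left) and model mice (right), bars 1 SE, filled red where the adjusted p is under 0.05. The plot shows 6 filled points in control and 3 in model mice, all above 0.

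In the model arm 3 of 40 members (7.5%) were called higher at day 15, against 8.47% of all genes (1.62% higher). Cxcl10 went from 3.72 ± 2.16 to 57.4 ± 56.4 FPKM (SD, n = 4; log2 difference 3.03, SE 0.77, limma adjusted p = 0.0242), and Ccl5 and Ccl9 rose by 2.58 (limma adjusted p = 0.0351) and 1.12 (limma adjusted p = 0.0368). Ccl5 was at 2.18, 3.08, 3.45 and 3.88 FPKM in model mice of day 10. Without model mouse 3 of day 15, 0 members were called, and so it was without model mouse 1 or 4 of day 10. Without model mouse 3 of day 10, 1 was called, and without model mouse 1 or 2 of day 15, 6 were. The libraries did not overlap for 9 members (22.5%), against 15.4% of all genes.

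In the treatment arm 2 of 40 members (5%) were called lower at day 15, against 9.64% of all genes (7.53% lower). Ackr4 was at 7.36, 7.77, 7.02 and 7.02 FPKM at day 10 and 3.59, 3.91, 3.09 and 5.28 FPKM at day 15, with no overlap (log2 difference -0.76, SE 0.16, limma adjusted p = 0.00835). The call held with any 1 library left out. Ccl20 was at 1.23, 1.3, 0.697 and 0.738 FPKM at day 10 and 0.296, 0.327, 0.269 and 0.279 FPKM at day 15 (log2 difference -0.61, SE 0.19, limma adjusted p = 0.0459), a call kept only without mouse 3 of day 10 or mouse 3 of day 15. Without treatment mouse 3 of day 15, 9 members were called, and without treatment mouse 1, 2 or 4 of day 10 or 1 or 2 of day 15, 1 was. The libraries did not overlap for 4 members (10%), against 14.2% of all genes.

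Whether the effects changed between days was tested as an interaction. The model-control difference changed for no member by limma, with 0 members at an unadjusted p under 0.05, and for 0% of all genes. The treatment-model difference changed for no member either, against 0.0997% of all genes, with 3 members at an unadjusted p under 0.05. These were Ccl9 (-1.61, SE 0.46, limma adjusted p = 0.138), Ccl6 (-1.32, SE 0.45, limma adjusted p = 0.19) and Ccr2 (-1.14, SE 0.50, limma adjusted p = 0.305).

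Genes around the chemokines were read from lists of other family members, signalling genes, inducers and cleaving enzymes. Of 31 tested genes of chemokine receptor signalling, 5 rose in model mice of day 10 (16.1%, against 13.8% of all genes) and none fell. Dock2, an activator of Rac in leukocytes, rose by 1.08 (limma adjusted p = 0.025), Was, the Wiskott-Aldrich actin regulator, by 1.07 (limma adjusted p = 0.0195), Gng2, a G protein gamma subunit, by 0.69 and the receptor kinase Grk3 by 0.61. At day 15 Prex1, another Rac activator, and the leukocyte kinases Pik3cd and Pik3cg rose, 3 of 31 (9.68%, against 10.8%). Of the 6 tested family genes outside the name rule, Pf4 (platelet factor 4) and Cmklr1 (the chemerin receptor) rose at day 10, by 1.17 (limma adjusted p = 0.0176) and 0.78 (limma adjusted p = 0.0138), and at day 15 none was called.

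In treatment against model at day 15, 3 of 31 signalling genes were called (9.68%, against 19.7%). Rgs18, a damper of G-protein signalling in platelets and myeloid cells, was lower by -1.06 (SE 0.21, limma adjusted p = 0.00318) and Grk3 by -0.43 (limma adjusted p = 0.0392), while Plcb3 was 0.16 higher (limma adjusted p = 0.0437). Of the family genes Cklf was lower, by -0.32 (limma adjusted p = 0.0486). Of 12 tested inducers and NF-kB feedback genes and 5 tested cleaving enzymes, none was called in model against control or in treatment against model at either day. Il1b, a cytokine that induces CXCR2 ligands, was at 39.7, 11, 515 and 34.8 FPKM in model mice of day 15, with mouse 3 the highest as for the ligands, and at 59.9, 189, 1.85 and 167 FPKM in treatment mice, with mouse 3 the lowest.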

How the data were processed

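Polyadenylated RNA of whole skin was sequenced from 24 mice, 4 in each of 6 groups. The authors deposited FPKM values for 18892 genes in 1 table, and the submitters' processing notes name fastp, HISAT2, HTSeq and GRCm39, without versions. Groups come from the sample titles, and 0 columns belonged to unmapped samples. All 18715 genes above 0 were whole multiples of 1 read (tolerance 0.01 read for low values, 0.05 otherwise), giving 37048896 to 41117262 reads per library. The smallest whole numbers that fit each gene were taken. Read counts carry no molecular identifiers.

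Tests used limma 3.58.1 in R 4.3.3 (lmFit, contrasts.fit, eBayes with trend and robust settings) on log2(FPKM + 1), for genes with at least 1 FPKM in at least 4 libraries (13039 tested, 5853 removed). All 24 libraries shared 1 estimate of the spread. P-values were adjusted by Benjamini-Hochberg over all genes in each of 11 comparisons. Figures used Python 3.11.15 and matplotlib 3.10.9. In simulated data for model against control at day 10 on 13039 genes, 96 of 100 genes changed 2-fold and 99 of 100 changed 4-fold were recovered, with 10 unchanged genes called. The simulated spread came from the control mice of day 10 alone, and only control and model libraries of that day were simulated and fitted. Recovery in the main fit of all 24 libraries, or for genes that vary more between mice, was not measured.

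Members named by rule with full values are those called in a comparison between treatments of a day and the 5 with the highest mean level, and where a comparison called none, the 3 with the smallest p. Values by mouse of other members were added after they were seen. The members and the gene lists were chosen with earlier results of these data known. Promoter windows came from RefSeq (GRCm38.p6) by gene ID, for 34 of 44 members, and gene order from RefSeq. Alternatives were another pseudocount, no filter, other scalings, only the groups compared, the replicate number as a block, voom on recovered reads and each library left out. Ccl21c, Ccl21d, Cxcl11, Cxcl15 and Ackr1 were not analysed here. The values of 1 tested member are not reported here, though counts over members include it.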

Additional observations from a re-analysis of the deposited data

Results flagged for a closer look

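In 96 groups of 4 mice (16 members in 6 groups), 4 held a mouse whose gap to the nearest other exceeded Dixon's 95% critical value. The gap was taken as a part of the group's range, both on log2(FPKM + 1). Gaps in FPKM itself were not examined, so a mouse far above its group in FPKM can go unflagged. An example is Ccl7 in model mouse 3 of day 15, at 401 FPKM with the next at 104 FPKM. About 4.8 such groups come by chance at 1 in 20. Ccl12 was at 17.9 FPKM in mouse 2 of the treatment group at day 10, with the next at 9.66 FPKM. Ccl20 was at 0.425 FPKM in mouse 3 of the control group at day 15, with the next at 0.187 FPKM. Ccl7 was at 13.4 FPKM in mouse 2 of the control group at day 10, with the next at 7.60 FPKM. Ccl27a was lowest in mouse 2 of the treatment group at day 15, at 3.51 FPKM with the next at 5.60 FPKM.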

How the results depend on the processing

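Of 29 calls of single members under 9 alternatives, 216 of 261 values kept their direction and call, 45 lost the call and 0 changed direction, and 14 calls were never lost under these 9. The 9 include the fit without the low Y-linked libraries, which leaves mouse 3 alone in the treatment group of day 15. For comparisons with that group this fit is no check of a call, and its count is not given. Model against control at day 10 called 5 members, and 8 with a pseudocount of 0.1, 16 with only the groups compared, 11 without the treatment libraries of low Y-linked transcripts and 15 without mouse 3 of the model and treatment groups of day 15. At day 15 it called 4, and 2 with only the groups compared and 7 without the low Y-linked libraries. Treatment against model at day 15 called 3, and 0 with only the groups compared and 13 without the low Y-linked libraries. Treatment against control at day 10 called 4, and 7 with the pseudocount of 0.1, 20 with only the groups compared and 12 without both mice numbered 3. At day 15 it called 1, and 0 with the pseudocount of 0.1, no filter, a common total, only the groups compared, the replicate block or voom, and 9 without both mice numbered 3. Day 15 against day 10 called 7 in control mice, and 17 with only the groups compared, 4 by voom and 16 without both mice numbered 3. In model mice it called 3, and 0, 8 and 1 with only the groups compared, without the low Y-linked libraries and without both mice numbered 3. In treatment mice it called 2, and 1 with the pseudocount of 0.1, no filter, median-of-ratios scaling, the replicate block or voom, and 12 without both mice numbered 3. The change of the treatment-model difference called 0. The causes were not tested. The share of all genes called under each alternative, or with a library left out, is not given, so these counts show only how the calls moved. Leaving out both mice numbered 3 and leaving out the low Y-linked libraries were chosen after seeing the data. A stricter limit on Y-linked transcripts, fixed earlier, removed no library and so gave no value.

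With 1 library left out at a time, the counts ranged from 2 to 6 and 1 to 6 for model against control at days 10 and 15, 0 to 0 and 1 to 6 for treatment against model, and 1 to 4 and 0 to 7 for treatment against control. They ranged from 0 to 10, 0 to 6 and 1 to 9 for days in control, model and treatment mice, and were 0 for both changes of a difference. The replicate numbers did not pair the mice: of 60 same-numbered pairs, 21 correlated over 0.1 (from -0.631 to 0.509) and 15 best with their own number. With the replicate block, the counts in the same order were 5, 3, 0, 2, 4, 0, 7, 3, 1, 0 and 0.

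The share of higher calls among all genes called moved with scaling. From deposited FPKM to median-of-ratios to a common total it was 49.1%, 43.7% and 63% for model against control at day 10 and 39.2%, 43.3% and 61.1% at day 15. For treatment against model it was 48%, 53.6% and 36% at day 10 and 52.6%, 52.9% and 29% at day 15. For days it was 30.8%, 59.7% and 22.1% in control, 19.1%, 54.1% and 15.9% in model and 21.9%, 46.2% and 8.27% in treatment mice. With 4 mice per group and wide spread between mice, members such as the CXCR2 ligands had SEs above 1 on the log2 scale.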
